A study of Mus musculus with 9 samples.

Results

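The genes described here encode the lipases, lipase regulators and lipid droplet coat proteins with which brown adipocytes store and release triglyceride, measured in brown adipose tissue (BAT) of mice after acute cold. The set was chosen by gene symbol and holds 10 genes: Pnpla2, Lipe, Mgll, Abhd5, G0s2, Plin1, Plin2, Plin4, Plin5 and Cidec. All 10 were listed in each of the 3 deposited tables, which share 16006 genes, and none was lost to a filter on low values. Libraries came from 9 mice, 3 per group. WT RT mice were wild type and stayed at 23 °C, WT Cold mice were wild type and spent 8 h at 4 °C, and GCN2 KO Cold mice carried a whole body deletion of Gcn2 (gene Eif2ak4) and spent 8 h at 4 °C. All were 12 to 23 wk old adults of both sexes on C57Bl/6J, housed singly for 5 days beforehand with food at all times. Each group of 3 held both sexes, so their shares can differ between groups, and sex was not part of any test. No knockout group at room temperature was analysed here, so a genotype difference is known only in the cold.

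Triglyceride in a brown adipocyte lies in droplets coated by perilipins. Lipolysis runs in sequence: adipose triglyceride lipase (ATGL, gene Pnpla2) removes the first fatty acid, hormone-sensitive lipase (gene Lipe) the next, and monoacylglycerol lipase (gene Mgll) the last. ABHD5 activates ATGL and G0S2 inhibits it. In cold, noradrenaline acts through β-adrenergic receptors, cyclic AMP and protein kinase A on perilipin 1 and hormone-sensitive lipase, and the released fatty acids both fuel and activate the uncoupling protein UCP1. These steps are controlled largely by phosphorylation and protein contacts, which transcript counts do not measure.

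The 9 libraries held 27055469 to 30766437 reads on the listed genes, and within a group they are called A, B and C. The title of 1 of the 3 GCN2 KO Cold samples also names WT and gives no temperature, so its place in the group rests on its genotype and temperature fields, and the columns do not say which library it is. The libraries labelled GCN2 KO Cold are called the KO-labelled libraries from here on. Their Eif2ak4 level was not lower (377.2 ± 15.5 normalized counts, SD, n = 3) than in WT Cold (221.2 ± 34.9, SD, n = 3). All 3 were above all 3 WT Cold libraries, with a log2 fold change of 0.78 (SE 0.15, limma, adjusted p = 0.0932). WT RT had 332.7 ± 37.5 (SD, n = 3). Against WT RT the log2 fold change was -0.59 in WT Cold (limma, adjusted p = 0.0294) and 0.19 in the KO-labelled libraries (limma, adjusted p = 0.260). A total per gene cannot reveal which part of the transcript was sequenced. None of 10 brown adipocyte markers was at 0 in any group. The same held for the markers of other cell types below, so this does not check the tissue label. The 10 summed to 203989 to 249698 in WT RT, 402203 to 438027 in WT Cold and 524106 to 529769 in the KO-labelled libraries. Ucp1 alone had 123338 ± 24165, 246650 ± 11848 and 297917 ± 4337 in these groups (SD, n = 3). Against WT RT, 7 of the 10 were higher and 0 lower in WT Cold (limma, adjusted p under 0.05). In the KO-labelled libraries 8 were higher and 0 lower, and 0 passed between the cold groups. The library codes of WT RT have another prefix than those of the cold groups, so the code set and temperature cannot be told apart. Levels below are normalized counts, recovered reads divided by size factors set over all 9 libraries. Tests are from limma within each deposited table on log2(normalized count + 1), adjusted over all its genes. A gene was called when its adjusted p was under 0.05 and its absolute log2 fold change over 1. The median log2 fold change of all genes in the KO-labelled libraries was 0.01 against WT RT and -0.00 against WT Cold, and with scaling to the library totals (CPM) instead it was -0.19 and -0.12.

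Compared with WT RT, the WT Cold libraries held more transcript of the ATGL inhibitor and of its activator and less of hormone-sensitive lipase, while ATGL itself did not pass the test. The test was passed by 5 of the 10 genes (adjusted p under 0.05), against 27.7% of the 16679 genes tested. Abhd5, G0s2 and Cidec were the 3 higher ones (13.6% of all genes) and Lipe and Plin1 the 2 lower ones (14.1%). Only G0s2 was called at both thresholds, which is near the 8.14% of all genes that were. The 3 WT Cold libraries did not overlap the 3 WT RT libraries for 6 of the 10 genes, against 45.5% of all genes. The median log2 fold change of the 10 genes was 0.11, and that of all genes 0.00. With CPM, 1570 genes were higher and 2905 lower at an adjusted p under 0.05, against 2268 and 2356.

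**Figure D1:**
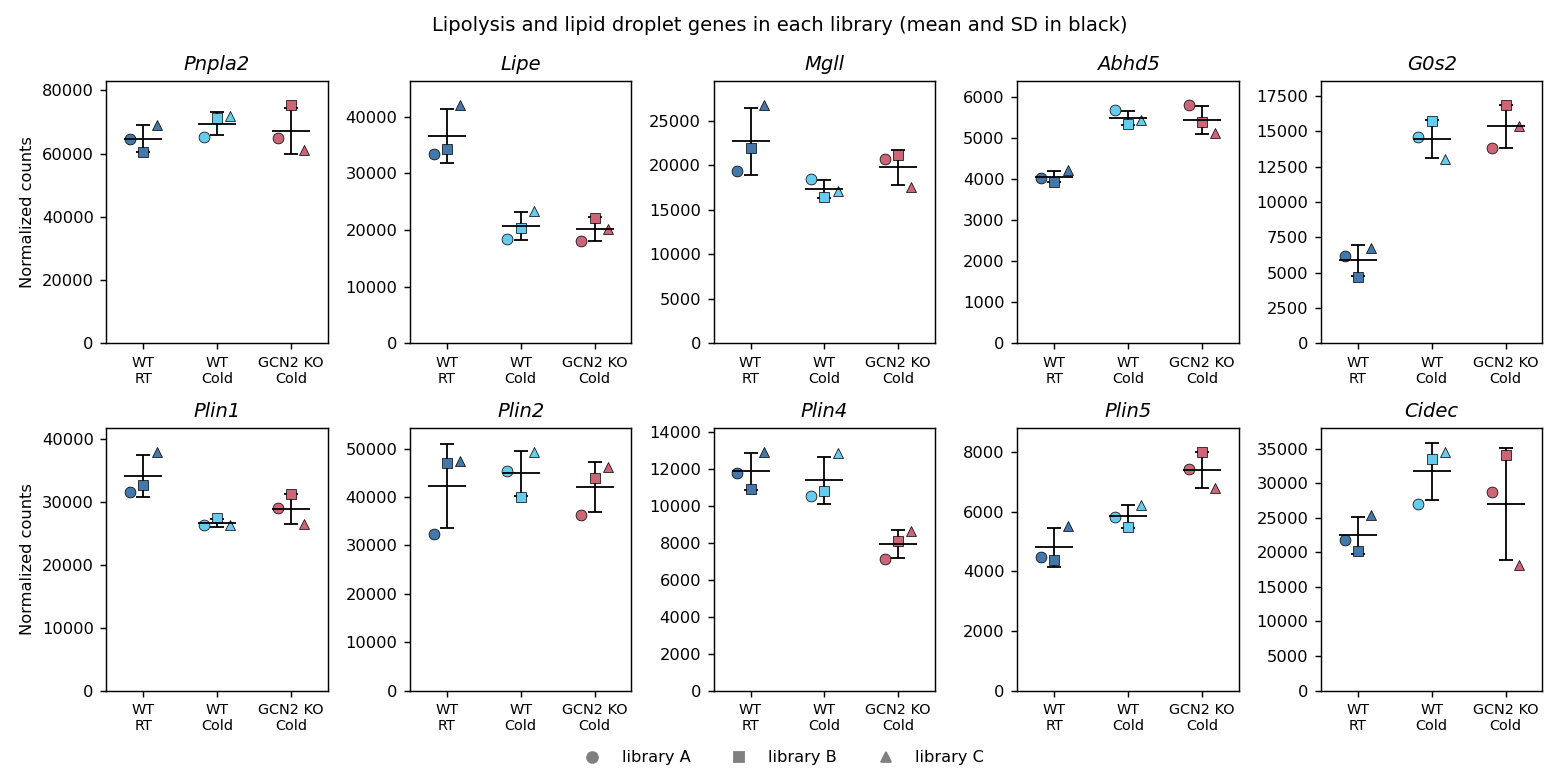
Normalized counts (y axis, on one scale for all 9 libraries) of each of the 10 genes, with a panel per gene, a point per library and the group mean and SD in black. G0s2 in WT RT lies at 4671 to 6737 normalized counts and in both cold groups at 13007 to 16858, Lipe shows the opposite order, and Plin4 is lower and Plin5 higher in the 3 KO-labelled libraries than in the other 6.

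Pnpla2, which encodes ATGL, lies on chromosome 7 of GRCm38 from 141455198 to 141460743. It had 64644, 60398 and 69124 normalized counts in the WT RT libraries, 65308, 71193 and 71860 in WT Cold and 64997, 75387 and 61168 in the KO-labelled libraries. The 3 groups overlapped. Its log2 fold change in WT Cold against WT RT was 0.11 (standard error, SE, 0.09, limma, adjusted p = 0.427), and the 95% interval of the fold ran from 0.928 to 1.25. Per kilobase of exon, Pnpla2 was the highest of the 10 genes in each group, with 21431 ± 1445 normalized counts per kilobase in WT RT (SD, n = 3), and ranked 44 among all genes there.

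Lipe, which encodes hormone-sensitive lipase, lies on chromosome 7 from 25379527 to 25398710. Its normalized counts were 33473, 34206 and 42070 in WT RT, 18398, 20365 and 23330 in WT Cold and 18007, 22201 and 20167 in the KO-labelled libraries. All 6 cold libraries were below all 3 WT RT libraries. Lipe had a log2 fold change of -0.82 in WT Cold (SE 0.12, limma, adjusted p = 0.00314), a level 0.568 times that in WT RT, with a 95% interval from 0.466 to 0.692. The gene 4732471J01Rik overlaps Lipe on the other strand. Overlaps here and below are of whole gene spans, introns included, and overlap of exons was not examined. Strand-specific counting is not stated in the sources used here, so reads from any exonic bases that a pair shares cannot be told apart. Fewer cells that express a gene and less of its RNA per cell cannot be told apart in bulk tissue either.

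Mgll, which encodes monoacylglycerol lipase, lies on chromosome 6 from 88724412 to 88828360. It had 19395, 21940 and 26774 normalized counts in WT RT, 18427, 16447 and 17146 in WT Cold and 20673, 21161 and 17544 in the KO-labelled libraries. Each WT Cold library was below each WT RT library, but the log2 fold change of -0.37 (SE 0.12) had an adjusted p of 0.0535 from limma. The side of 0.05 on which it fell depended on the method and the libraries, with an adjusted p of 0.0214 from DESeq2, 0.0167 with CPM, 0.0333 without WT RT library A and 0.157 without WT Cold library B. Mgll overlaps Gm26588 and Gm43937 on the other strand, to which the limit given for Lipe applies, and Gm43999, Gm44001 and Gm44005 on its own strand.

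The regulators of ATGL moved further than the lipase. G0s2, the inhibitor, is a short gene on chromosome 1 from 193272161 to 193273217. Its normalized counts were 6213, 4671 and 6737 in WT RT, 14559, 15700 and 13007 in WT Cold and 13805, 16858 and 15355 in the KO-labelled libraries. Every cold library was far above every WT RT library. In WT Cold the log2 fold change of G0s2 was 1.31 (SE 0.14, limma, adjusted p = 0.000874), a 2.48-fold rise with a 95% interval from 1.98 to 3.12.

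Abhd5, the activator, lies on chromosome 9 from 122351608 to 122381524. It had 4030, 3932 and 4212 normalized counts in WT RT, 5681, 5328 and 5439 in WT Cold and 5801, 5389 and 5117 in the KO-labelled libraries. All 6 cold libraries were above all 3 WT RT libraries. Abhd5 changed by 0.44 on the log2 scale in WT Cold (SE 0.07, limma, adjusted p = 0.00324), a 1.35-fold rise with a 95% interval from 1.22 to 1.51. Abhd5 had the lowest level per kilobase of the 10 genes in every group, 681.3 ± 23.8 in WT RT and 920.5 ± 30.4 in WT Cold (SD, n = 3). G0s2 overlaps Lamb3 and Abhd5 overlaps A730085K08Rik on the other strand, so the limit on strand given for Lipe holds for both.

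Promoter windows are shown for G0s2, Abhd5 and Lipe, the 3 genes that passed the test against WT RT in both cold groups, so that their sequence can be read beside these levels. They are RefSeq sequences on GRCm38.p6, 250 bases before to 50 bases after an annotated start, all 5′ to 3′ along the gene. Capitals mark matches, on either strand, to the cAMP response element half-site TGACG, the nuclear receptor half-site AGGTCA, the E-box CACGTG, the TATA box TATAAA, the CCAAT box and the GC box GGGCGG. RefSeq gave 14 windows for the 10 genes, and neither the start used in these libraries nor binding of any factor was measured. Neighbouring GC boxes in a Lipe window overlap.
G0s2, chr1:193273139-193273438, minus strand: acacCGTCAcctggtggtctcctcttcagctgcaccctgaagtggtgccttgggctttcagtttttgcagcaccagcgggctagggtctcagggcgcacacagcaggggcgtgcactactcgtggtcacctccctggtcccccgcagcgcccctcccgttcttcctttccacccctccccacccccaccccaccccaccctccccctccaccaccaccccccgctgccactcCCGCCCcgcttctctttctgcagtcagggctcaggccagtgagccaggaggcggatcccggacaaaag
Abhd5, chr9:122351366-122351665, plus strand: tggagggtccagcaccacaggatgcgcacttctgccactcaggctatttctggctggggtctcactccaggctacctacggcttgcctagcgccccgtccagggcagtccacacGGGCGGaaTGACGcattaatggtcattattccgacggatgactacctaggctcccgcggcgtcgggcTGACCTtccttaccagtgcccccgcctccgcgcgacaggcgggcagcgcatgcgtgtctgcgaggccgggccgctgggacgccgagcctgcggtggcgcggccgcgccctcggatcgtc
Lipe, upstream start, chr7:25395938-25396237, minus strand: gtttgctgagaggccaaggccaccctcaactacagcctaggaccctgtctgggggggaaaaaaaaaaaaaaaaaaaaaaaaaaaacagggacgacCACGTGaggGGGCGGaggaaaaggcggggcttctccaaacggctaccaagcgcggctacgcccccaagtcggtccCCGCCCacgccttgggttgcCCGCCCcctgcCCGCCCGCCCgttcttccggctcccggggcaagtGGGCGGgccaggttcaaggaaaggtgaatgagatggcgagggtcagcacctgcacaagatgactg
Lipe, downstream start, chr7:25390063-25390362, minus strand: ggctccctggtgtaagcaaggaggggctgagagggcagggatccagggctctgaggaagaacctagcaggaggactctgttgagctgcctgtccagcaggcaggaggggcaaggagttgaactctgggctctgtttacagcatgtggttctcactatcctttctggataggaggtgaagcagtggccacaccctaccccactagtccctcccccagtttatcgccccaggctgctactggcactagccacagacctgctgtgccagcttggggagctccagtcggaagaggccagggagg

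A TGACG match lay at -246 to -242 in G0s2, at -128 to -124 in Abhd5 and at 19 to 23 in a window of Mgll, which is not shown, counted from the start as 0. These were 3 of the 14 windows, against 20.8% of all 32851. Abhd5 held an AGGTCA match at -69 to -64 (16.3% of all windows) and both G0s2 and Abhd5 held a GC box (35.7%). The upstream Lipe window held an E-box (7.15% of all windows) and 6 GC boxes, and the downstream window had no match to any of the 6 motifs. Over the 14 windows, AGGTCA was found in 4, CACGTG in 3, CCAAT in 3 (37.4% of all windows), GGGCGG in 9 and TATAAA in 0 (13.6% of all windows).

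Of the 4 perilipins among the 10 genes, only Plin1 had an adjusted p under 0.05 in WT Cold against WT RT. Plin1, the main coat protein of adipocyte droplets and the one that holds ABHD5 away from ATGL at rest, lies on chromosome 7 from 79720218 to 79732903. It had 31591, 32690 and 37918 normalized counts in WT RT, 26280, 27444 and 26360 in WT Cold and 28951, 31236 and 26489 in the KO-labelled libraries. All 6 cold libraries were below all 3 WT RT libraries. Plin1 changed by -0.34 on the log2 scale in WT Cold (SE 0.09, limma, adjusted p = 0.0256), but the adjusted p was above 0.05 when any one of 4 libraries was left out. It was 0.0819 and 0.0670 without WT Cold library A or B and 0.0504 and 0.0557 without WT RT library B or C.

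Plin2, a coat protein of many cell types, lies on chromosome 4 from 86648386 to 86670060. Its normalized counts were 32269, 47074 and 47522 in WT RT, 45343, 40091 and 49326 in WT Cold and 36302, 43942 and 46167 in the KO-labelled libraries, and the groups overlapped. WT RT library A was the lowest of the 9. The log2 fold change in WT Cold was 0.11 (95% interval -0.26 to 0.48, limma, adjusted p = 0.647), and without that library it was -0.07.

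Plin4 and Plin5 both lie on the minus strand of chromosome 17, Plin4 from 56100591 to 56109803 and Plin5 from 56111601 to 56117596. Plin4, which coats newly forming droplets in adipocytes, had 11759, 10881 and 12898 normalized counts in WT RT and 10511, 10781 and 12820 in WT Cold. These groups overlapped, with a log2 fold change of -0.06 (95% interval -0.30 to 0.18, limma, adjusted p = 0.711). Plin5, which links droplets to mitochondria in oxidative tissues, had 4473, 4388 and 5535 normalized counts in WT RT and 5825, 5473 and 6216 in WT Cold. WT RT library C lay within the WT Cold range, and the log2 fold change of 0.29 (SE 0.11) had an adjusted p of 0.0734 from limma. Without that library the log2 fold change was 0.40 and the adjusted p 0.0216.

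Cidec, which promotes the fusion and growth of droplets, lies on chromosome 6 from 113424634 to 113435760. It had 21856, 20181 and 25382 normalized counts in WT RT, 27048, 33604 and 34552 in WT Cold and 28817, 34071 and 18114 in the KO-labelled libraries. The WT Cold libraries were all above the WT RT libraries, while KO-labelled library C was the lowest of the 9. Cidec changed by 0.50 on the log2 scale in WT Cold (SE 0.13, limma, adjusted p = 0.0220). The adjusted p was 0.0803 without WT Cold library B, 0.0693 and 0.0737 without WT RT library A or B, and 0.149 in the fit of all 3 groups on CPM.

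**Figure D2:**
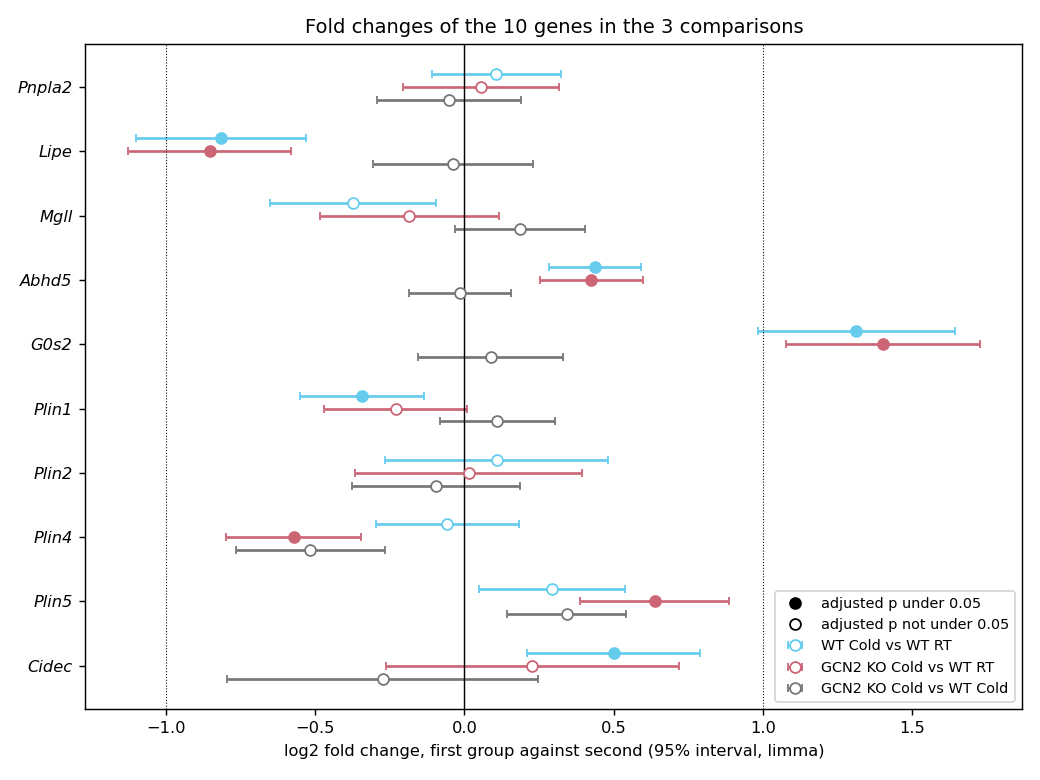
log2 fold changes of the 10 genes (x axis) in the 3 comparisons, with 95% intervals from limma and filled points for an adjusted p under 0.05. Lipe, Abhd5 and G0s2 have filled points in both comparisons with WT RT, and no gene has a filled point between the 2 cold groups, where Plin4 at -0.52 and Plin5 at 0.34 lie farthest from 0 on either side.

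Between the 2 cold groups, none of the 10 genes passed the test, and Plin4 and Plin5 differed most, in opposite directions. With limma, 0 of the 10 genes reached an adjusted p under 0.05 (0.405% of the 16312 genes tested) and 0 were called (0.257%). At an unadjusted p under 0.05 there were 2, Plin4 and Plin5, near the 15.3% of all genes. At an adjusted p under 0.05, DESeq2 and the fit of all 3 groups on CPM each gave 1 gene, Plin4, against 3.29% and 2.62% of all genes tested. The groups did not overlap for the same 2 genes, against 22.0% of all genes. The median log2 fold change of the 10 genes was -0.03, and that of all genes was -0.00.

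Plin4 had 7117, 8104 and 8609 normalized counts in the KO-labelled libraries, all below the 10511 of the lowest WT Cold library. The log2 fold change was -0.52 (SE 0.11, limma, adjusted p = 0.106), a level 0.699 times that in WT Cold with a 95% interval from 0.588 to 0.831. DESeq2 gave an adjusted p of 0.00537, and over the alternatives the adjusted p ran up to 0.290. Hdgfl2 overlaps Plin4 on the other strand. Plin5 had 7432, 8002 and 6794 normalized counts, all above the 6216 of the highest WT Cold library. Its log2 fold change was 0.34 (SE 0.09, limma, adjusted p = 0.145), with adjusted p-values from 0.0617 to 0.385 over the alternatives.

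The 18 skeletal muscle markers had their lowest summed levels in the same 3 libraries as Plin4. Their summed level was 91248 to 103046 normalized counts in WT RT, 87085 to 139100 in WT Cold and 14419 to 55274 in the KO-labelled libraries. All 18 had a negative log2 fold change against WT Cold, with a median of -1.87. Of the 18, 1 passed the test, Myh7 at -3.34 (limma, adjusted p = 0.0483), and none was at 0 in any group. Against WT RT, where Plin4 and Plin5 also passed, 16 of the 18 were lower at an adjusted p under 0.05 and 15 were called (median -1.66). The most abundant, Acta1, had 22929 ± 4571 normalized counts in WT Cold and 6611 ± 3831 in the KO-labelled libraries (SD, n = 3). Skeletal muscle also expresses Plin4 and Plin5. Within the KO-labelled libraries, library C had the lowest marker sum, the highest Plin4 and the lowest Plin5. The part of muscle RNA in these differences was not tested.

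**Figure D3:**
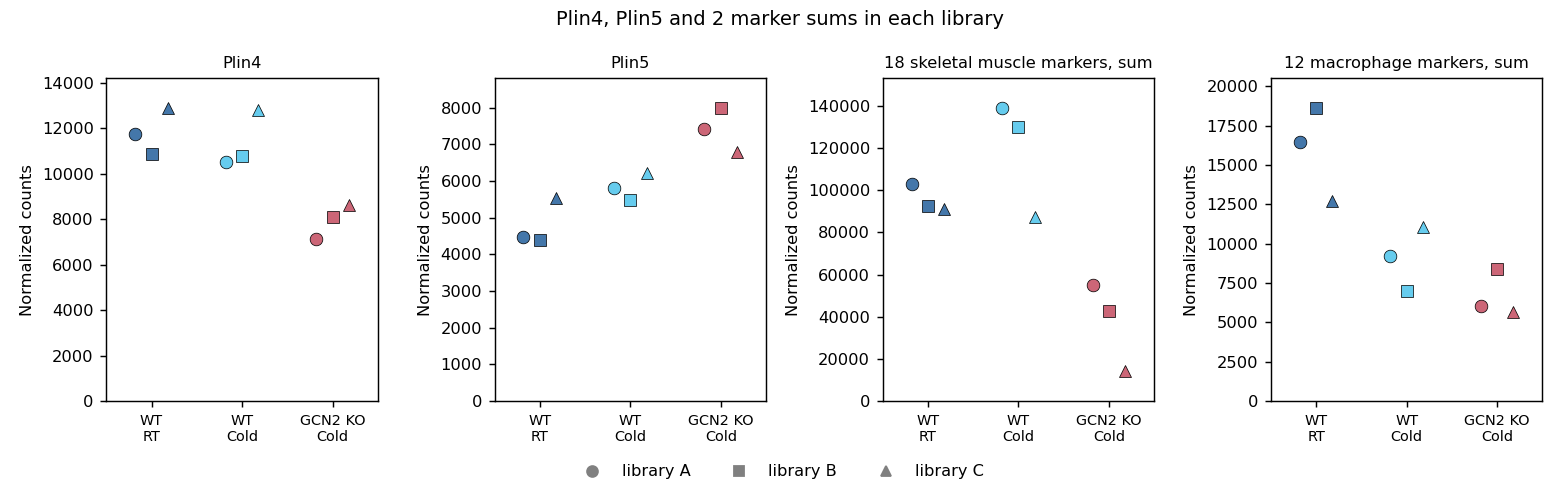
Normalized counts (y axis, on one scale for all 9 libraries) of Plin4, Plin5, the sum of 18 skeletal muscle markers and the sum of 12 macrophage markers, with a point per library. The muscle sum is 14419 to 55274 in the KO-labelled libraries and at least 87085 in the other 6, while Plin4 is lower and Plin5 higher in those 3 libraries than in the other 6.

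For the other 8 genes the intervals show how large a difference between the cold groups could still be. The 95% interval of the fold ran from 0.815 to 1.14 for Pnpla2, from 0.808 to 1.17 for Lipe, from 0.879 to 1.12 for Abhd5 and from 0.898 to 1.26 for G0s2. Among the lipolytic genes, Abhd5 was thus the most narrowly bounded. The intervals were 0.979 to 1.32 for Mgll, 0.944 to 1.23 for Plin1 and 0.769 to 1.14 for Plin2. Cidec had the widest, 0.576 to 1.19, and its log2 fold change of -0.27 became -0.01 without KO-labelled library C.

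Against WT RT, the KO-labelled libraries also had 5 of the 10 genes at an adjusted p under 0.05 (34.2% of the 16560 genes tested), with Abhd5, G0s2 and Plin5 higher (16.4% of all genes were) and Lipe and Plin4 lower (17.8%). G0s2 alone was called (10.6%). The groups did not overlap for 6 genes, these 5 and Plin1 (49.2%). The median log2 fold change of the 10 genes was 0.04, and that of all genes 0.01. With CPM, 1486 genes were higher and 4820 lower, against 2713 and 2944, and Lipe and G0s2 were both called. This comparison shares its WT RT libraries with that of WT Cold, so the values below are given side by side only.

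The log2 fold change of G0s2 against WT RT was 1.40 (SE 0.14, limma, adjusted p = 0.000383) in the KO-labelled libraries and 1.31 in WT Cold. That of Abhd5 was 0.43 (SE 0.08, limma, adjusted p = 0.00363) and 0.44. That of Lipe was -0.85 (SE 0.12, limma, adjusted p = 0.00137) and -0.82. In these 3 genes, which passed the test in both comparisons, both cold groups thus stood on the same side of WT RT. This was not particular to them. With limma, all 10 genes had the same sign against WT RT in both cold groups, 6 positive and 4 negative. Some of these log2 fold changes were small, such as those of Plin2 at 0.02 in the KO-labelled libraries and 0.11 in WT Cold.

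Against WT RT, Plin5 differed by 0.64 on the log2 scale in the KO-labelled libraries (SE 0.11, limma, adjusted p = 0.00309), and Plin4 by -0.57 (SE 0.10, limma, adjusted p = 0.00322). Both passed under all 16 alternatives. Plin1 at -0.23 had an adjusted p of 0.125 with limma and 0.00637 with CPM, and Mgll at -0.18 had 0.310 and 0.0296. Pnpla2 at 0.06 and Plin2 at 0.02 did not pass and turned to -0.15 and -0.19 with CPM. Cidec at 0.23 had an adjusted p of 0.442, and without KO-labelled library C its log2 fold change was 0.49 and its adjusted p 0.0260.

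Ratios of 2 genes within a library do not depend on the scaling. The ratio of G0s2 to Pnpla2, inhibitor to lipase, was -3.48 ± 0.19 on the log2 scale in WT RT, -2.27 ± 0.17 in WT Cold and -2.13 ± 0.12 in the KO-labelled libraries (SD, n = 3). Per kilobase, G0s2 was at 0.313 ± 0.039 of the level of Pnpla2 in WT RT and 0.722 ± 0.082 in WT Cold (SD, n = 3). The log2 ratio of Abhd5 to Pnpla2 rose by 0.33 in WT Cold and that of Lipe to Pnpla2 fell by 0.92. For these 3 ratios every cold library lay beyond every WT RT library, and each gave p = 0.1 (exact permutation test, two-sided, adjusted p = 0.15 over 15 comparisons), the smallest p that 3 against 3 libraries can give.

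Among the coat proteins, the log2 ratio of Plin5 to Plin1 was -2.83 ± 0.06 in WT RT, -2.19 ± 0.12 in WT Cold and -1.96 ± 0.00 in the KO-labelled libraries (SD, n = 3). The 3 groups did not overlap, and each of the 3 comparisons gave p = 0.1 (exact permutation test, two-sided). The log2 ratio of Plin2 to Plin1 exceeded that in WT RT by 0.45 in WT Cold without overlap (p = 0.1, exact permutation test, two-sided), and overlapped otherwise. None of the first 3 ratios separated the 2 cold groups, with exact permutation p-values from 0.4 to 0.9.

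**Figure D4:**
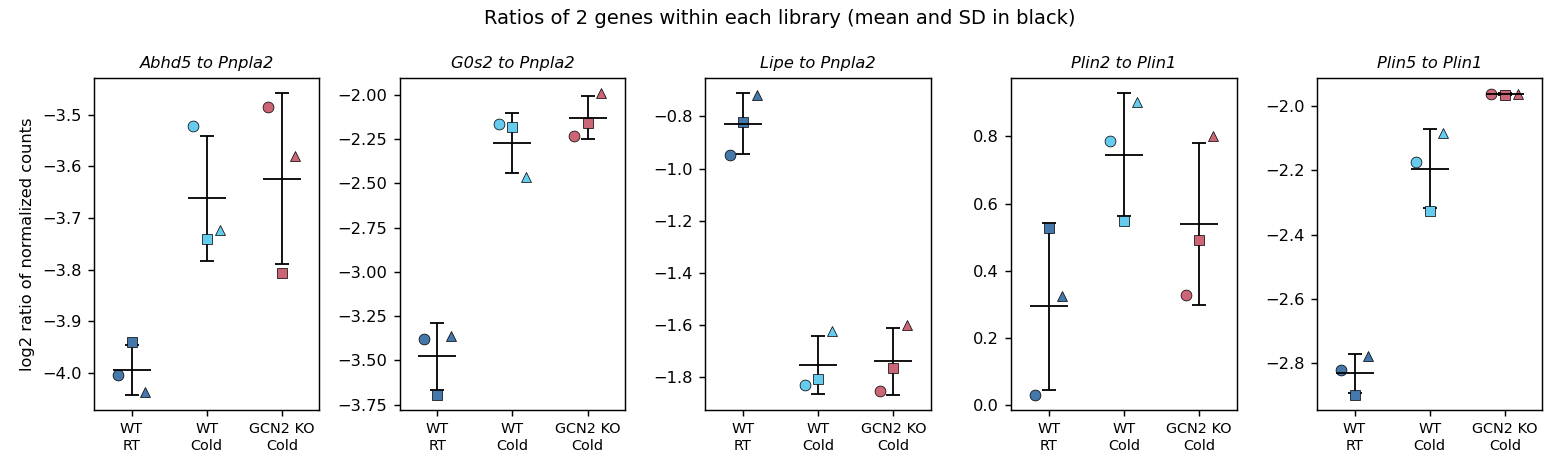
log2 ratios of normalized counts of 2 genes within each library (y axis, not starting at 0), with a panel per pair, a point per library and the group mean and SD in black. The ratios of Abhd5, G0s2 and Lipe to Pnpla2 separate WT RT from both cold groups, and that of Plin5 to Plin1 separates all 3 groups.

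Per kilobase, the 5 perilipins including Plin3 can be set against each other. Plin2 made up the largest share of their sum in each group, 48.7 ± 4.6% in WT RT, 53.4 ± 2.2% in WT Cold and 49.9 ± 4.0% in the KO-labelled libraries (SD, n = 3). Plin1 followed with 30.0 ± 2.4%, 24.1 ± 2.1% and 26.0 ± 2.2%. Plin5 held 9.40 ± 0.99%, 11.7 ± 0.04% and 14.8 ± 1.3%, and Plin4 8.43 ± 1.17%, 8.22 ± 0.53% and 5.73 ± 0.36%. Within every library Plin5 held a larger share than Plin4. Their ranges over libraries overlapped in WT RT and stood apart in both cold groups.

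The levels of the 10 genes per kilobase can be put in order within each group. In WT RT the order was Pnpla2, Cidec, Plin2, Plin1, G0s2, Lipe, Mgll, Plin5, Plin4 and Abhd5, and the ranges of Cidec and Plin2, of Plin1 and G0s2, of G0s2 and Lipe and of Plin5 and Plin4 overlapped. In WT Cold, G0s2 stood in place 3 with 16558 ± 1552 normalized counts per kilobase (SD, n = 3), overlapping Cidec at 17098 ± 2202 (SD, n = 3). Lipe, at 3516 ± 422 (SD, n = 3), kept place 6 and overlapped Mgll. In the KO-labelled libraries G0s2 stood in place 2 and Lipe in place 8, each overlapping its neighbour above or below.

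Of 15 other droplet protein genes, WT Cold had 4 higher and 1 lower than WT RT at an adjusted p under 0.05, and the median of all 15 was 0.14 on the log2 scale. In the KO-labelled libraries, 7 were higher and 1 lower than in WT RT (median 0.31), and 0 of 15 passed against WT Cold (median 0.10). Plin3, the perilipin closest to Plin2, fell in WT Cold with a log2 fold change of -0.48 (limma, adjusted p = 0.00970). In the KO-labelled libraries Plin3 was at -0.04 against WT RT (limma, adjusted p = 0.871) and at 0.44 against WT Cold (limma, adjusted p = 0.211). Cidea, the relative of Cidec typical of brown fat, was at 0.11 in WT Cold (limma, adjusted p = 0.341) and rose by 0.50 in the KO-labelled libraries (limma, adjusted p = 0.00349). Cideb, at 119.0 ± 7.9 normalized counts in WT RT (SD, n = 3) the lowest of the family, was at 0.30 (adjusted p = 0.257) and 0.87 (adjusted p = 0.00368) in the same comparisons with limma.

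Of 12 other neutral lipid hydrolases, WT Cold had 5 lower and 0 higher than WT RT (median log2 fold change -0.30), 3 were lower in the KO-labelled libraries than in WT RT (median -0.29) and 0 passed between the cold groups (median 0.14). The 1 called was Pnpla3, a relative of ATGL, with 4862, 7154 and 7499 normalized counts in WT RT, 1681, 1247 and 858 in WT Cold and 3138, 2146 and 1738 in the KO-labelled libraries. Its log2 fold changes against WT RT were -2.39 (limma, adjusted p = 0.000796) and -1.49 (limma, adjusted p = 0.00204). Pnpla3 therefore fell where its relative Pnpla2 did not pass the test.

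Upstream of lipolysis, 19 genes from the β-adrenergic receptors to protein kinase A were listed. In WT Cold, 7 were higher and 4 lower than in WT RT (median log2 fold change 0.11), in the KO-labelled libraries 6 and 4 (median 0.03), and 0 passed between the cold groups (median -0.06). Adrb3, the receptor that starts lipolysis in adipocytes, fell from 7856 ± 1570 normalized counts to 3541 ± 371 in WT Cold (SD, n = 3), a log2 fold change of -1.13 (limma, adjusted p = 0.00155). Adora1, a receptor that restrains cyclic AMP, fell by 1.08 on the log2 scale (limma, adjusted p = 0.00489). Adcy3, which makes cyclic AMP, rose by 2.12 (limma, adjusted p = 2.27e-05), and Pde4d, which degrades it, rose by 1.19 (limma, adjusted p = 0.00221). Against WT RT, the KO-labelled libraries gave -1.49, -1.06, 1.90 and 0.82 for these 4 genes.

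Downstream, 11 genes of fatty acid binding, activation and re-esterification were listed, of which WT Cold had 5 higher and 2 lower than WT RT (median log2 fold change 0.24), 5 higher and 1 lower in the KO-labelled libraries (median 0.39), and 0 passed between the cold groups (median 0.19). Gk, which encodes the glycerol kinase that returns glycerol to triglyceride synthesis, rose from 5155 ± 327 to 28882 ± 3106 normalized counts in WT Cold (SD, n = 3), by 2.49 on the log2 scale (limma, adjusted p = 2.12e-05). Fabp3, a fatty acid carrier of oxidative tissue, rose by 1.70 (limma, adjusted p = 0.000208), and Fabp5 fell by 1.22 (limma, adjusted p = 0.00107). Dgat1, which completes triglyceride synthesis, rose by 0.92 in WT Cold and by 1.16 in the KO-labelled libraries. Dgat2, named after its values were seen, encodes another enzyme of that step and fell by 0.76 in WT Cold (limma, adjusted p = 0.0162), while it was at -0.46 in the KO-labelled libraries (limma, adjusted p = 0.170).

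Markers of other cell types were summed in the same libraries. The 12 macrophage markers summed to 12701 to 18644 normalized counts in WT RT, 7014 to 11059 in WT Cold and 5644 to 8415 in the KO-labelled libraries, with 7 lower in WT Cold and 10 lower in the KO-labelled libraries than in WT RT at an adjusted p under 0.05. The 8 endothelial markers summed to 15705 to 18547, 20399 to 23175 and 17225 to 20854, where the KO-labelled range overlapped both others. Against WT RT, 3 were higher and 0 lower in WT Cold, and 2 were higher and 3 lower in the KO-labelled libraries. The 8 white adipocyte markers summed to 8294 to 10144, 7362 to 8753 and 5617 to 7834, and the range of WT Cold overlapped both others. Of these 8, 1 was higher and 2 lower in WT Cold, and 0 were higher and 2 lower in the KO-labelled libraries. The 8 general adipocyte markers summed to 499650 to 540868, 770168 to 826958 and 870272 to 914113, with 3 higher and 1 lower in WT Cold and 5 higher and 1 lower in the KO-labelled libraries. Lpl alone went from 97664 ± 5033 in WT RT to 284494 ± 7768 in WT Cold (SD, n = 3). In WT Cold, 6 of the 8 had a positive and 2 a negative log2 fold change (median 0.23). The sum therefore leans on Lpl and does not give the share of adipocytes. Between the cold groups 0 markers of these 4 lists passed. No marker of these lists was at 0 in any group. Their part in the changes of the 10 genes was not tested.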

How the data were processed

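Poly(A) RNA was sequenced as paired reads of 150 bases. According to the study's methods and the submitters' processing notes, the authors trimmed reads with Trimmomatic 0.36, aligned them with STAR 2.5.2b (GRCm39), counted unique exonic reads with featureCounts of Subread 1.5.2 and compared groups with DESeq2. The deposited signal per gene and library is the number of reads over a DESeq2 size factor, estimated separately in each of 3 tables. Whole reads were recovered for 100% of values (tolerance 0.1). The authors' fold changes and p-values, in the same tables, were not used. Columns carry library codes, assigned to groups by the tables that hold them.

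Groups were compared within a table by limma 3.58.1 (R 4.3.3) with a mean-variance trend, a pseudocount of 1 and Benjamini-Hochberg adjustment. The fit was also run on simulated data, with planted changes larger than those of most of the 10 genes. It therefore does not show how well changes of their size are found. Alternatives were other pseudocounts, filters, scalings and fits, edgeR 4.0.16 and DESeq2 1.42.0 on recovered reads, and each library left out. Fold changes are on the log2(value + 1) scale. Libraries held 27055469 to 30766437 reads on the listed genes, and the intervals from limma cover counting error and variation between libraries together. Exon lengths and gene positions are from GENCODE M21 (GRCm38). All 10 genes, genes past both thresholds in the other lists, paralogs and the most abundant markers could be named. The genes and lists were chosen with earlier results of these data known.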

Additional observations from a re-analysis of the deposited data

How the results depend on the processing

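Over the alternatives, G0s2, Lipe and Abhd5 kept their direction and an adjusted p under 0.05 against WT RT in both cold groups, and so did Plin4 and Plin5 in the KO-labelled libraries. In WT Cold against WT RT, the 5 genes with an adjusted p under 0.05 became 6 (Mgll added) with CPM, edgeR, DESeq2 or a mean of at least 50 normalized counts, 3 without the mean-variance trend and 3 to 5 without 1 library, with 3 left without WT Cold library B or WT RT library B. Between the cold groups, 0 became 1 (Plin4) with DESeq2 and with all 3 groups in the fit on CPM. Against WT RT, the called genes of the KO-labelled libraries went from 1 to 2 (Lipe added) with CPM, in 2 or 3 groups. The count of all genes called between the cold groups, 42, was 208 with DESeq2, 179 with 3 groups on CPM, 6 without the trend and 3 to 22 without 1 library, with 3 left without WT Cold library B. At an adjusted p under 0.05 alone, 66 genes became 536, 419, 6 and 3 to 24. The cause of these shifts was not tested. Signs turned only for log2 fold changes that had not passed. Without 1 library, Plin2 ran from -0.073 (without WT RT library A) to 0.20 and Plin4 from -0.15 to 0.0061 (without WT RT library C) in WT Cold against WT RT. Between the cold groups, Pnpla2 ran from -0.14 to 0.0096, Lipe from -0.12 to 0.050, Abhd5 from -0.063 to 0.026 and Plin2 from -0.17 to 0.0076. In the KO-labelled libraries against WT RT, Pnpla2 ran from -0.030 to 0.12 and Plin2 from -0.17 to 0.12. With CPM in 2 and 3 groups, G0s2 was -0.0292 and -0.0293 and Plin1 -0.00656 and -0.00659 between the cold groups, and against WT RT Pnpla2 was -0.147 and -0.148 and Plin2 -0.188 and -0.188 in the KO-labelled libraries. There Plin2 was also -0.0091 with TMM and -0.024 with edgeR. The log2 ratio differences between the cold groups ran from -0.031 to 0.13 for Abhd5 to Pnpla2 and from -0.056 to 0.078 for Lipe to Pnpla2 without 1 library. No paired analysis was possible because the columns carry no replicate numbers.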

Other observations

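The median SD of log2 levels within a group was 0.15 for the 10 genes and 0.19 for all 16006 genes. The coefficient of variation of a gene within a group ran from 2.44% for Plin1 in WT Cold to 30.1% for Cidec in the KO-labelled libraries, where library C had 18114 normalized counts and libraries A and B had 28817 and 34071. In those same libraries the log2 ratios of Plin5 to Plin1 were -1.96, -1.96 and -1.96. Plin5 and Plin1 each ran in the order B, A, C there.

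Per kilobase, Cidec, G0s2 and Pnpla2 ranked 72, 75 and 56 among all genes in WT Cold, and Abhd5 ranked 1356. Fitm1, a droplet protein of skeletal and heart muscle that was chosen after its values were seen, had 202.4 ± 54.6 normalized counts in WT Cold and 83.7 ± 25.1 in the KO-labelled libraries (SD, n = 3), a log2 fold change of -1.27 (adjusted p = 0.133 from limma).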
